A study of Arabidopsis thaliana with 30 samples.

Results

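The first transcript response of leaves to coronatine was measured in 6 libraries of Arabidopsis thaliana whole leaves, 3 from leaves sprayed with coronatine and 3 from mock leaves, all taken 1 h after spraying. The genes described are those with an abundance of at least 1 TPM (transcripts scaled to a common library total, a level per transcript length and relative to the library total) in at least 3 of these 6 libraries. Of the 27655 loci in the table, 17531 met that rule (63.4%). They belong to a series of 30 libraries in 10 groups of 3, covering 0, 1, 3, 12 and 24 h. Coronatine leaves received 5 µM coronatine in water, and mock leaves received water. Plants of both groups were jazD in the Col-0 ecotype and were 26 days old when sprayed. The labels say no more of the genotype than this name. From general knowledge of the line, jazD is disrupted in 10 of the 13 JAZ genes, which would leave JAZ8, JAZ11 and JAZ12 intact. Both groups share these lesions, and reads from a disrupted locus do not show an intact transcript. All values therefore describe leaves that lack most JAZ repressors in both groups, and no wild-type leaf was analysed here.

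Coronatine is a toxin of the leaf pathogen Pseudomonas syringae that takes the place of jasmonoyl-isoleucine, the active jasmonate hormone, in the receptor formed by the F-box protein COI1 and a JAZ protein. Binding sends the JAZ protein to degradation, which releases MYC2 and related bHLH factors from repression. MYC factors bind the G-box, CACGTG, in the promoters of their targets. Among the best known targets are the JAZ genes themselves, genes that make jasmonate and genes that oxidise it, so that activation, amplification and shut-off of the signal start together. In leaves jasmonate is known for raising chemical defence against chewing insects and for slowing growth.

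TPM keeps no record of sequencing depth, so the depth behind each value is unknown and no counting interval is given. Spearman correlations across genes were 0.985 to 0.993 between coronatine libraries, 0.989 to 0.993 between mock libraries and 0.936 to 0.959 across the treatments. Mock replicate 2 stood apart for the genes that rose most. It had the highest mock value for 86 of the 100 largest rises, against 38.5% of all genes. Coronatine replicate 1 had the highest coronatine value for 69 of those 100 genes, against 31.7% of all genes. For the rises described below whose mock replicate 2 was more than 2 times both other mock values, the difference is also given without that library. Leaving out the highest mock value can only enlarge a rise, so it is no test of the rise. No label says that the replicates are separate plants, so the p-values reflect library-to-library spread only, part or all of which may be technical. Differences below are coronatine minus mock on the log2(TPM + 1) scale, ± the standard error of limma, with n = 3 in each group and Benjamini-Hochberg adjusted p from limma. The median difference of all genes was -0.18, and 0.01 after rescaling with TMM factors. Genes are said to rise or fall only if called in the same direction on both scalings.

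Marker genes bore out the leaf label, with mesophyll markers high and flower markers near 0. The 4 mesophyll markers summed to 50749 ± 295 TPM in coronatine leaves and 53587 ± 1137 TPM in mock leaves (SD), and the 5 flower markers to 0.467 ± 0.204 and 0.380 ± 0.173 TPM. Of the markers of the other cell types, 4 of 5 for epidermis, 1 of 6 for guard cells and 1 of 2 for root fell, and 0 rose. Of all genes, 15.3% fell and 9.87% rose. For epidermis 3 of 5 fell without coronatine replicate 1 or mock replicate 1 or 2. The guard cell call was lost without coronatine replicate 1 or 2 or mock replicate 1 or 2, and the root call without coronatine replicate 1 or mock replicate 1 or 3, which left 0 of 6 and 0 of 2. No marker of mesophyll, phloem, xylem, trichome or myrosin cells rose or fell by limma, although 1 xylem marker fell without coronatine replicate 2. In whole leaves, fewer cells of a type and less RNA per cell cannot be told apart.

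Within 1 h of spraying, 1730 genes rose in coronatine leaves (9.87% of the genes tested) and 2684 fell (15.3%), which makes 25.2% in either direction. Counts of gene lists below are to be read against these shares of all genes. On TPM as deposited alone the split was 1730 higher and 7732 lower, and on TMM-rescaled TPM alone it was 3354 higher and 2684 lower. Without mock replicate 2 the counts on both scalings were 1653 and 2187. At 0 h the same test called 0 genes. There 946 genes had an unadjusted limma p under 0.05 on TPM and 729 on rescaled TPM, and the smallest adjusted p was 0.0609. All 3 coronatine values lay above all 3 mock values for 1815 genes (10.4%) and below them for 8633 genes (49.2%), a lopsided split that goes with the shifted median. Of the genes that rose, 1640 had no overlap between the groups, and 2673 of those that fell had none.

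The rises were larger than the falls. Their median was 0.75 log2 units, 659 exceeded 1 and 64 exceeded 3, up to 5.45. Falls had a median of -0.64, 401 were of more than 1 and 2 of more than 3 log2 units, down to -3.73. The extremes are loci without a symbol, named here after their values were seen. AT2G44578 rose to 252.7, 249.6 and 224 TPM in coronatine leaves, against 2.84, 6.51 and 4.95 TPM in mock leaves. AT5G23411 had 37.6, 0 and 0 TPM in coronatine leaves and 34.5, 48.1 and 50.9 TPM in mock leaves, so the largest fall is one whose groups overlapped, with coronatine replicate 1 at the mock level. The genes that rose summed to 174179 ± 6336 TPM in coronatine leaves and 83989 ± 5617 TPM in mock leaves (SD). Genes that fell summed to 39014 ± 1857 TPM in coronatine leaves and 65476 ± 528 TPM in mock leaves. Both sets were picked by direction in these same libraries, so the direction of each sum was fixed and the sums only describe size.

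The rule admits genes near its threshold, which carry little weight. Its third-highest value was exactly 1 TPM for 21 genes, such as AT1G01640 with 0.64, 0.88 and 0.70 TPM in coronatine leaves and 1.5, 1.3 and 1.0 TPM in mock leaves. It was 0.99 TPM for 12 loci just outside, such as GXM3 (AT1G09610) with 0.55, 0.50 and 0.99 TPM in coronatine leaves and 0.74, 1.12 and 1.15 TPM in mock leaves. A further 73 genes reached 1 TPM in the 3 coronatine libraries alone and 207 in the 3 mock libraries alone. Such genes had to differ, and 70 of the 73 and 158 of the 207 are among those counted as risen and fallen.

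**Figure D1:**
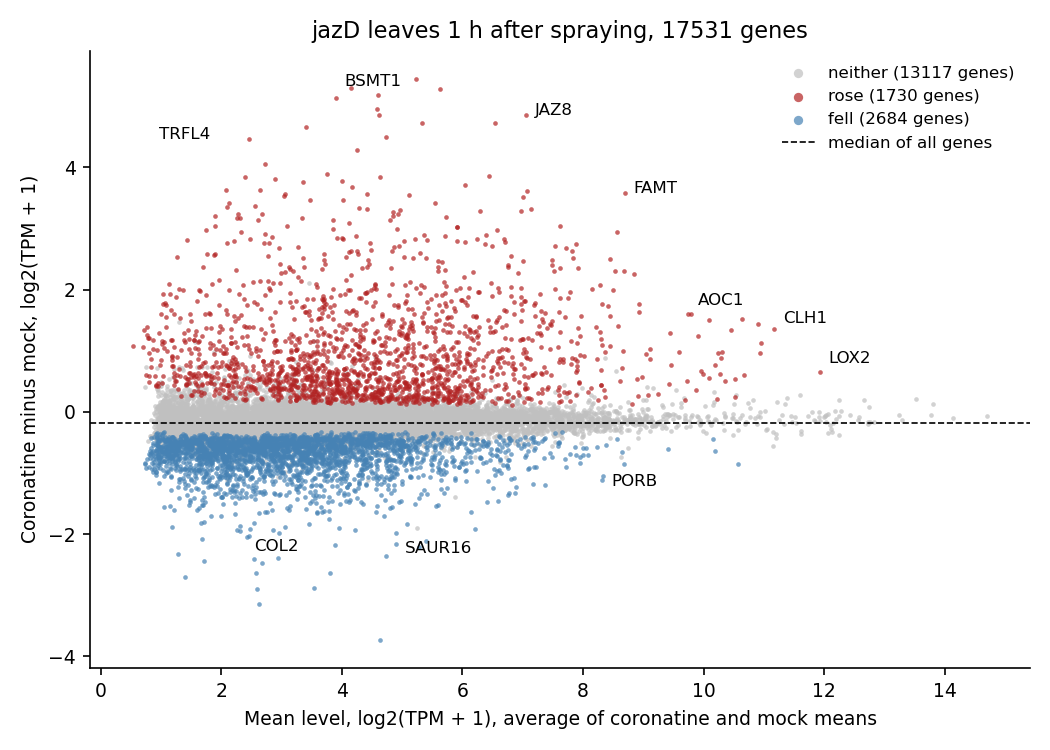
Difference between coronatine and mock leaves at 1 h (vertical axis, log2(TPM + 1)) against the mean level of both groups (horizontal axis, log2(TPM + 1)), with 1 point per gene for 17531 genes, coloured by call, and the median of all genes as a dashed line. The 1730 genes that rose reach 5.45 and include very abundant ones such as LOX2 and CLH1, while the 2684 genes that fell reach -3.73.

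The largest rises were genes with few transcripts in mock leaves. The genes ranked here by size have a symbol, at least 10 TPM on average in the higher group and no overlap between the groups. BSMT1 (AT3G11480), which methylates salicylate and benzoate, read 302, 318 and 255 TPM in coronatine leaves, against 4.06, 13.6 and 4.73 TPM in mock leaves. MAPKKK19 (AT5G67080), a kinase at the top of a MAP kinase cascade, read 148, 126 and 122 TPM in coronatine leaves, against 2.49, 3.95 and 3.57 TPM in mock leaves. Its relative MAPKKK21 (AT4G36950) read 139.8, 139 and 123 TPM in coronatine leaves, against 1.31, 7.20 and 1.64 TPM in mock leaves. By the ranking rule, every coronatine value of these 3 genes was above every mock value. Mock replicate 2 was the highest mock library each time. BSMT1 differed by 5.28 ± 0.44 (limma adjusted p = 3.5e-10), MAPKKK19 by 4.95 ± 0.14 (limma adjusted p = 9.4e-19) and MAPKKK21 by 5.19 ± 0.31 (limma adjusted p = 3.5e-13). Without mock replicate 2 the differences were 5.76, 5.05 and 5.77, which had to be larger, since the highest mock value was left out.

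Transcription factors and calcium sensors followed. RAP2.6 (AT1G43160), an ERF factor, read 114, 119.8 and 102 TPM in coronatine leaves, against 2.14, 11.3 and 2.25 TPM in mock leaves. RRTF1 (AT4G34410), also an ERF factor and known from roots for linking jasmonate to auxin synthesis, read 26.4, 26.7 and 23.3 TPM in coronatine leaves, against 0.31, 1.34 and 0.31 TPM in mock leaves. MYB24 (AT5G40350), known from stamen development under jasmonate, read 49.6, 57.2 and 49.1 TPM in coronatine leaves, against 0.99, 1.78 and 0.63 TPM in mock leaves. These factors were low in mock leaves, and by the ranking rule their groups did not overlap. CML39 (AT1G76640), a calmodulin-like protein, read 198, 201 and 196 TPM in coronatine leaves, against 3.78, 11.4 and 6.20 TPM in mock leaves. Differences were 4.50 ± 0.39 (limma adjusted p = 5.3e-10) for RAP2.6 and 4.73 ± 0.28 (limma adjusted p = 3.5e-13) for CML39. They were, with mock replicate 2 left out, 5.14 and 5.09 in the same order. Only mock replicate 2 reached 1 TPM for RRTF1 and MYB24, so both met the rule through the coronatine libraries. Their differences of 4.06 and 4.67, or 4.33 and 4.88 without that mock library, are descriptions. The other genes among the 15 largest rises were JAZ8, JOX4, TRFL4, CYP82G1, CYP94C1, CYP94B1, ADT5 and CYP71B37. TRFL4 (AT3G53790) had the lowest mock level of them, with 31.4, 24.3 and 19.4 TPM in coronatine leaves, against 0.05, 0.42 and 0.05 TPM in mock leaves, so it met the rule through the coronatine libraries only. Its difference was 4.46, or 4.61 without mock replicate 2, given as a description. ADT5 (AT5G22630), an arogenate dehydratase of phenylalanine synthesis, read 242, 244 and 224 TPM in coronatine leaves, against 13.5, 22.3 and 16.6 TPM in mock leaves, a difference of 3.71 ± 0.11 (limma adjusted p = 1.1e-18).

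The promoters of these genes bear on the G-box of the MYC factors. In the 250 bases before the start of the gene, 5 of the 15 largest rises hold CACGTG and 0 of the 15 largest falls do. The sequences of those 5 are shown with 3 others, AOS as an abundant gene of jasmonate synthesis that rose, SAMDC as a gene that fell although it holds the motif, and HBI1 as a gene that fell and lacks it. They are RefSeq sequences of the TAIR10.1 assembly, written 5′ to 3′ on the strand of the gene, and the capitals mark the G-box. Windows are chr1:10596102-10596351 (+) for JAZ8, chr5:26772394-26772643 (+) for MAPKKK19, chr4:17423954-17424203 (-) for MAPKKK21, chr1:16263555-16263804 (+) for RAP2.6, chr4:16451626-16451875 (+) for RRTF1, chr5:17099596-17099845 (-) for AOS, chr3:508636-508885 (+) for SAMDC and chr2:7954786-7955035 (-) for HBI1.
JAZ8: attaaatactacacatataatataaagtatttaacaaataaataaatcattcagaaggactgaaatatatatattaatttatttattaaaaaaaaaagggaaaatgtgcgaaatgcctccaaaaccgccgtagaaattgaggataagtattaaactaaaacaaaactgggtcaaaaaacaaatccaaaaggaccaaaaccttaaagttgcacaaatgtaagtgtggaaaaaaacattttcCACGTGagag
MAPKKK19: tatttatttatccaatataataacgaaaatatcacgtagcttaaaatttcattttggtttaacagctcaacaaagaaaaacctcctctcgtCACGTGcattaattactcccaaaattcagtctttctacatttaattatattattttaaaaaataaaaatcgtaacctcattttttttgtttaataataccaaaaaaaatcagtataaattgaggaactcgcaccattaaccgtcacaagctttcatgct
MAPKKK21: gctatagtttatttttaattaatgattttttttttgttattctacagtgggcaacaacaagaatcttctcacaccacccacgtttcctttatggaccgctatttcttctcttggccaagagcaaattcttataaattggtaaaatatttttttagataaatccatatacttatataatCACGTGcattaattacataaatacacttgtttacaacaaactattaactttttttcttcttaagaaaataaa
RAP2.6: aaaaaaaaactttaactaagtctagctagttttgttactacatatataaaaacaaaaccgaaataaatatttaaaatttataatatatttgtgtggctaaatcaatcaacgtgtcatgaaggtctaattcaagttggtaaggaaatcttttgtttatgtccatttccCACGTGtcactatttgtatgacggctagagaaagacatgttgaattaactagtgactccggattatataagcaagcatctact
RRTF1: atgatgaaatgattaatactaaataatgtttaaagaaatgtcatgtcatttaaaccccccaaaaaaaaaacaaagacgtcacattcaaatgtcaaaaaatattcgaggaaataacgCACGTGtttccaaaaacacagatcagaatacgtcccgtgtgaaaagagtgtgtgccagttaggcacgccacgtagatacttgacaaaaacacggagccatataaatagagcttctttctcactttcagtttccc
AOS: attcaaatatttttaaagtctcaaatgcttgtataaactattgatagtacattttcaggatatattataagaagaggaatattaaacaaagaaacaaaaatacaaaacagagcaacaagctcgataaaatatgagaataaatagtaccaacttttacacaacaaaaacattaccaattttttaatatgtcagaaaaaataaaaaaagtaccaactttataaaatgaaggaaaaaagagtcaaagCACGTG
SAMDC: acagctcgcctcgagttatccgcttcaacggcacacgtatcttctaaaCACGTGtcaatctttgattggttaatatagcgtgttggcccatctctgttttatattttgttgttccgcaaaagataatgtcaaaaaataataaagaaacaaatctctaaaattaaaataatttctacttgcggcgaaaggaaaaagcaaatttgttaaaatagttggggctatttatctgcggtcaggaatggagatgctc
HBI1: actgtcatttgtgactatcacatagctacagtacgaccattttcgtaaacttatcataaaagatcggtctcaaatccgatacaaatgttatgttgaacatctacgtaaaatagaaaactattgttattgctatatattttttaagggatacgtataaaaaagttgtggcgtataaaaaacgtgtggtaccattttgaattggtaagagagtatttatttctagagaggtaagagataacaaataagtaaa
The first base of the G-box lies 10 bases before the gene start in JAZ8, 159 in MAPKKK19, 72 in MAPKKK21, 83 in RAP2.6, 134 in RRTF1, 6 in AOS and 202 in SAMDC. Gene starts of RefSeq and of the authors' TAIR10 table were the same for 2723 of the 17531 genes, so the windows may not begin where transcription does in these leaves.

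Across all genes with a window, the G-box was held by 13.1% of the 1722 genes that rose, by 5.4% of the 2684 genes that fell and by 7.49% of all 17428 genes. It was held by 21 of the 100 largest rises and by 3 of the 100 largest falls. The related CACATG was held by 16.4% of the genes that rose, 11.7% of those that fell and 11.1% of all. Both motifs were thus more common among rises than among all genes, a description with no test. The TTGAC core of the W-box, to which WRKY factors bind, was held by 49.2% of the genes that rose, 43.9% of those that fell and 44.9% of all. The GCC-box of ERF factors, GCCGCC, was held by 2.67%, 1.12% and 2.00%, and the evening element of clock factors, AAATATCT, by 6.16%, 5.44% and 5.01%. Site II, TGGGCC, common in promoters of growth and ribosome genes, was held by 9.12% of the genes that rose and 9.50% of those that fell, against 17.3% of all. Motifs were searched on both strands and a match is not a bound site. Where both occur, CACGTG and CACATG cannot overlap, while some of the other motifs can.

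**Figure D2:**
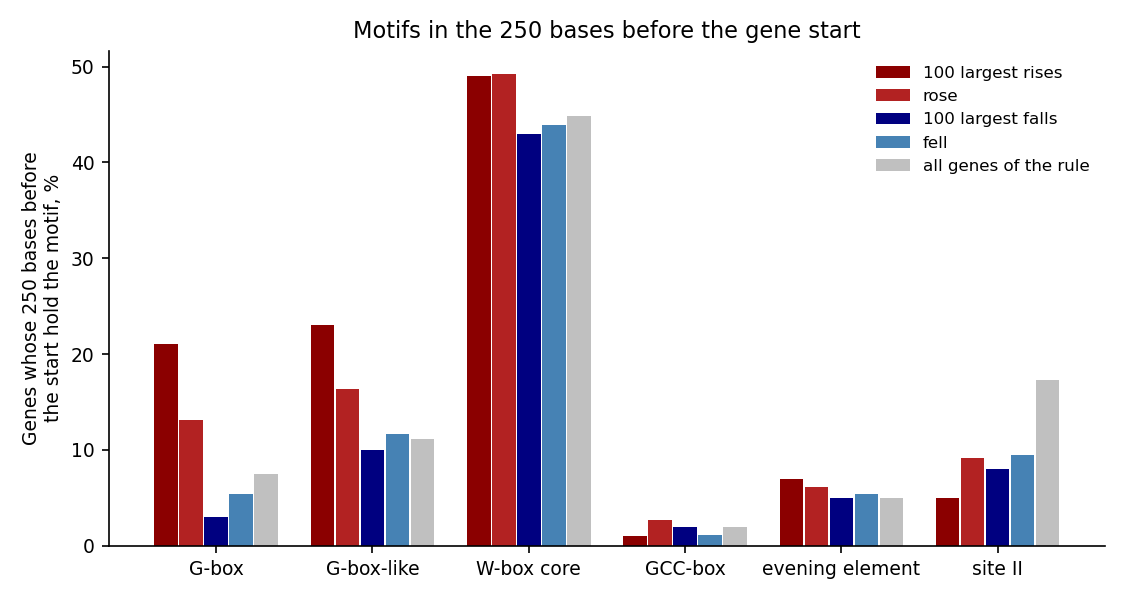
Share of genes, in percent, whose 250 bases before the start hold each of 6 motifs on either strand, for the 100 largest rises, all genes that rose, the 100 largest falls, all genes that fell and all genes with a window. The G-box is held by 21% of the 100 largest rises, 3% of the 100 largest falls and 7.49% of all genes, while site II is below the share of all genes in each of the 4 groups that changed.

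Most JAZ repressor genes rose. Of the 13 genes 12 passed the filter, 10 rose and 0 fell (against 9.87% and 15.3% of all genes), with a median difference of 1.37 log2 units above that of all genes. JAZ4 was below the filter. JAZ8 (AT1G30135), taken as intact, read 763, 662 and 673 TPM in coronatine leaves, against 17.2, 34.1 and 21.1 TPM in mock leaves. JAZ12 (AT5G20900), also taken as intact, read 185, 178 and 178 TPM in coronatine leaves, against 97.3, 107 and 89.7 TPM in mock leaves. The third, JAZ11 (AT3G43440), read 10.6, 10.2 and 9.90 TPM in coronatine leaves, against 11.2, 10.8 and 11.4 TPM in mock leaves. JAZ8 and JAZ12 showed no overlap, and the values of JAZ11 were slightly lower in coronatine leaves. Differences were 4.86 ± 0.16 (limma adjusted p = 4.1e-18) for JAZ8, 0.88 ± 0.06 (limma adjusted p = 3.2e-12) for JAZ12 and -0.12 ± 0.08 (limma adjusted p = 0.23) for JAZ11, which was 0.08 after TMM rescaling and did not pass on both scalings. Without mock replicate 2, JAZ8 differed by 5.12.

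Transcripts of the loci taken as disrupted rose too. JAZ9 (AT1G70700) was the most abundant, with 801, 837 and 805 TPM in coronatine leaves, against 153, 191 and 151 TPM in mock leaves. JAZ10 (AT5G13220) read 199, 174 and 176 TPM in coronatine leaves, against 34.7, 47.8 and 43.5 TPM in mock leaves. JAZ5 (AT1G17380) differed by 2.84 ± 0.14 (limma adjusted p = 1.2e-14), or 3.12 without mock replicate 2. JAZ7 (AT2G34600) met the rule through the coronatine libraries only, so its difference had to be large, and is given with no test as 3.16. JAZ9 differed by 2.30 ± 0.09 (limma adjusted p = 3.6e-16) and JAZ10 by 2.11 ± 0.12 (limma adjusted p = 8.0e-14). JAZ3 (AT3G17860), JAZ13 (AT3G22275), JAZ6 (AT1G72450) and JAZ1 (AT1G19180) differed by 1.3, 1.08, 0.75 and 0.74, each with all coronatine values above all mock values. JAZ2 (AT1G74950) read 2.43, 3.00 and 3.37 TPM in coronatine leaves, against 2.81, 2.75 and 3.32 TPM in mock leaves, groups that overlap, with a difference of -0.01 on TPM and 0.15 after TMM rescaling. All JAZ transcripts together summed to 2045 ± 66.0 TPM in coronatine leaves and 392 ± 49.7 TPM in mock leaves (SD).

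Genes of jasmonate synthesis rose in plastid steps and in part of the peroxisome steps. Of 19 genes 17 passed the filter, 12 rose and 0 fell, with a median 0.92 log2 units above that of all genes. KAT2 (AT2G33150) and AIM1 (AT4G29010), of later peroxisome steps, neither rose nor fell by limma on both scalings. LOX3 (AT1G17420) and LOX4 (AT1G72520), lipoxygenases that start the pathway, were low in mock leaves. LOX3 read 477, 449 and 413 TPM in coronatine leaves, against 24.8, 66.9 and 26.6 TPM in mock leaves. LOX4 read 460.2, 439.8 and 391 TPM in coronatine leaves, against 29.5, 49.3 and 33.7 TPM in mock leaves. LOX2 (AT3G45140), the lipoxygenase that dominates leaves, read 5188, 4793 and 4613 TPM in coronatine leaves, against 2969.9, 3394 and 2917 TPM in mock leaves. The groups did not overlap for any of the 3. The log2 differences were 3.62 ± 0.20 (limma adjusted p = 1.1e-13) for LOX3, 3.51 ± 0.12 (limma adjusted p = 2.6e-17) for LOX4 and 0.65 ± 0.10 (limma adjusted p = 4.6e-06) for LOX2. LOX3 differed by 4.06 without mock replicate 2.

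The next enzymes were already expressed in mock leaves. AOS (AT5G42650), allene oxide synthase, read 2806, 2625 and 2654 TPM in coronatine leaves, against 876, 1085 and 872 TPM in mock leaves. AOC1 (AT3G25760), an allene oxide cyclase, read 3306, 2983 and 3192 TPM in coronatine leaves, against 1075, 1292 and 1129.6 TPM in mock leaves, and its reads may be split with its close AOC copies. Neither had any overlap between the groups. OPR3 (AT2G06050), the reductase of the peroxisome, read 1142, 943 and 1015 TPM in coronatine leaves, against 104, 197 and 114 TPM in mock leaves. OPCL1 (AT1G20510), which loads its product onto coenzyme A, read 872, 824 and 784 TPM in coronatine leaves, against 134, 159.6 and 142 TPM in mock leaves. AOS differed by 1.52 ± 0.10 (limma adjusted p = 6.5e-12), AOC1 by 1.44 ± 0.11 (limma adjusted p = 1.1e-10), OPR3 by 2.94 ± 0.14 (limma adjusted p = 6.7e-15) and OPCL1 by 2.50 ± 0.07 (limma adjusted p = 3.2e-19). The list summed to 16001 ± 861 TPM in coronatine leaves and 7281 ± 675 TPM in mock leaves (SD).

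Genes that inactivate jasmonate rose. All 12 passed the filter and all 12 rose, with a median 2.59 log2 units above that of all genes, more than for synthesis. JOX4 (AT2G38240), which hydroxylates jasmonic acid, read 448, 438 and 377 TPM in coronatine leaves, against 8.37, 41.0 and 9.12 TPM in mock leaves. CYP94C1 (AT2G27690), which oxidises jasmonoyl-isoleucine, read 315, 298 and 264 TPM in coronatine leaves, against 10.2, 50.5 and 13.4 TPM in mock leaves. The mock libraries of both spread widely. CYP94B1 (AT5G63450), of the same family as CYP94C1, read 49.3, 53.2 and 50.01 TPM in coronatine leaves, against 1.16, 9.42 and 1.41 TPM in mock leaves. ILL5 (AT1G51780), an amidohydrolase-like gene, read 21.6, 15.4 and 14.7 TPM in coronatine leaves, against 0.23, 2.11 and 0.38 TPM in mock leaves. The groups did not overlap, although mock replicate 2 was several-fold above the other mock libraries in each of these genes. With it JOX4 differed by 4.73 ± 0.38 (limma adjusted p = 1.6e-10) and CYP94C1 by 3.85 ± 0.32 (limma adjusted p = 2.5e-10). CYP94B1 differed by 3.77 ± 0.33 (limma adjusted p = 7.9e-10). Without mock replicate 2 these differences were 5.43, 4.53 and 4.50, and all 12 genes of the list still rose. Only mock replicate 2 reached 1 TPM for ILL5, so ILL5 met the rule through the coronatine libraries. Its difference of 3.37, or 3.79 without that mock library, is a description. The list summed to 3217 ± 200 TPM in coronatine leaves and 666 ± 140 TPM in mock leaves (SD).

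Signalling components moved both ways. Of 12 regulators that passed, 5 rose and 3 fell, against 9.87% and 15.3% of all genes. MYC2 (AT1G32640), the main activator, read 240.4, 238 and 242 TPM in coronatine leaves, against 63.0, 80.1 and 61.6 TPM in mock leaves. JAM1 (AT2G46510), a bHLH that competes with MYC factors, read 111, 113 and 101 TPM in coronatine leaves, against 17.5, 24.2 and 19.2 TPM in mock leaves. MYC2 rose by 1.81 ± 0.08 (limma adjusted p = 4.5e-16) and JAM1 by 2.37 ± 0.08 (limma adjusted p = 2.2e-17), so activator and competitor rose together. JAM2 (AT1G01260) and MYC3 (AT5G46760) rose by 1.42 ± 0.05 and 0.98 ± 0.06. MYC4 (AT4G17880), also an activator, fell to 7.58, 9.79 and 8.82 TPM in coronatine leaves, against 13.9, 15.6 and 13.4 TPM in mock leaves. COI1 (AT2G39940), the receptor subunit, fell to 10.2, 9.35 and 8.33 TPM in coronatine leaves, against 14.1, 14.7 and 14.7 TPM in mock leaves. The differences were -0.66 ± 0.09 (limma adjusted p = 1.0e-06) for MYC4 and -0.59 ± 0.08 (limma adjusted p = 8.8e-07) for COI1.

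Several markers of jasmonate defence were already abundant in mock leaves. VSP1 (AT5G24780) and VSP2 (AT5G24770), are vegetative storage proteins of similar sequence that can share reads. VSP1 read 1378, 1579 and 1617 TPM in coronatine leaves, against 819, 1283 and 931 TPM in mock leaves. VSP2 read 1594, 1853 and 1797 TPM in coronatine leaves, against 1080.0, 1497 and 1092 TPM in mock leaves. Their groups did not overlap, and they rose by 0.61 ± 0.24 (limma adjusted p = 0.036) and 0.53 ± 0.22 (limma adjusted p = 0.043). VSP1 lost its limma call when mock replicate 1 (adjusted p = 0.15), mock replicate 3 (0.090), coronatine replicate 2 (0.077) or coronatine replicate 3 (0.089) was left out. VSP2 lost it without any 1 of coronatine replicates 1, 2 and 3 or mock replicates 1 and 3, with limma adjusted p from 0.054 to 0.13. Neither gene was called with a replicate block, by quantile normalization or with no filter on low values. PDF1.2 (AT5G44420), a defensin of the jasmonate and ethylene branch, read 17087, 12591 and 15163 TPM in coronatine leaves, against 12835, 12114 and 16047 TPM in mock leaves, values that overlap, a difference of 0.13 ± 0.24 (limma adjusted p = 0.66).

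**Figure D3:**
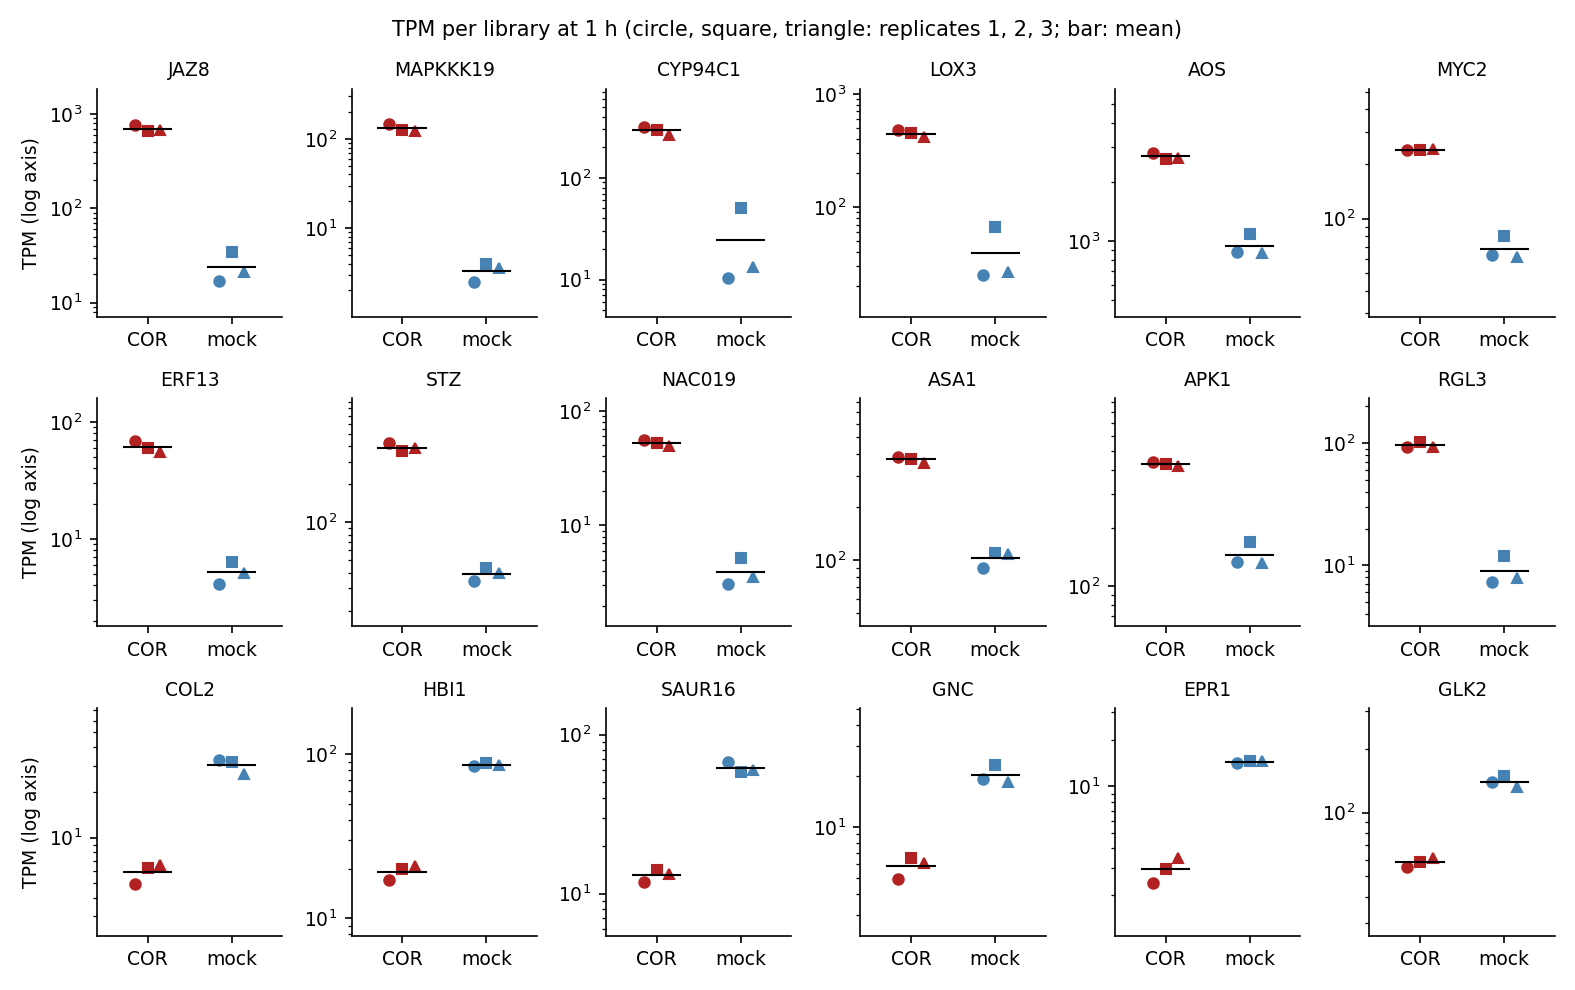
TPM of 18 genes in each of the 6 libraries at 1 h on log axes, coronatine (COR) left of mock, with replicates 1, 2 and 3 as circle, square and triangle and the group mean as a bar. The upper 12 genes have all coronatine values above all mock values and the lower 6 the reverse, and the square of mock replicate 2 is the highest mock point for JAZ8, CYP94C1, LOX3 and AOS.

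Genes of defence chemistry were among those that rose. Of the terpene synthase list, 5 of 10 genes passed, 5 rose and 0 fell. TPS04 (AT1G61120), which makes geranyllinalool, read 274, 229.5 and 212 TPM in coronatine leaves, against 15.3, 34.9 and 23.8 TPM in mock leaves. CYP82G1 (AT3G25180), which turns that product into a volatile homoterpene, read 55.0, 45.6 and 41.2 TPM in coronatine leaves, against 1.12, 5.95 and 1.26 TPM in mock leaves. Both steps of that route rose, TPS04 by 3.29 ± 0.24 (limma adjusted p = 2.3e-11) and CYP82G1 by 3.90 ± 0.30 (limma adjusted p = 6.6e-11). TPS03 (AT4G16740), an ocimene synthase, and TPS10 (AT2G24210), a linalool synthase, rose by 3.64 ± 0.23 (limma adjusted p = 1.7e-12) and 3.47 ± 0.42 (limma adjusted p = 2.3e-07). CYP82G1 differed by 4.45 and TPS10 by 3.81 without mock replicate 2. The list summed to 359 ± 44.3 TPM in coronatine leaves and 32.0 ± 14.7 TPM in mock leaves (SD).

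Tryptophan is the precursor of indole glucosinolates, and 8 of the 10 genes of its synthesis rose while 1 fell. ASA1 (AT5G05730), the anthranilate synthase subunit that starts the branch, read 388, 378 and 358 TPM in coronatine leaves, against 90.1, 110.0 and 107 TPM in mock leaves. ASB1 (AT1G25220), its partner subunit, read 208, 174 and 174 TPM in coronatine leaves, against 72.0, 88.3 and 84.6 TPM in mock leaves. IGPS (AT2G04400), a middle enzyme, rose by 1.05 ± 0.08 (limma adjusted p = 1.0e-10). TSB1 (AT5G54810), tryptophan synthase, read 1217, 985 and 1073 TPM in coronatine leaves, against 406, 464 and 471 TPM in mock leaves. The start and the end of the pathway rose, by 1.86 ± 0.09 (limma adjusted p = 1.3e-14) for ASA1, 1.17 ± 0.09 (limma adjusted p = 3.5e-11) for ASB1 and 1.28 ± 0.10 (limma adjusted p = 9.2e-11) for TSB1. The gene that fell, PAI3 (AT1G29410), was low, with 2.16 ± 0.0814 TPM in coronatine leaves, against 3.76 ± 0.306 TPM in mock leaves (SD), and may share reads with close copies.

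Indole glucosinolate synthesis had 12 of 17 measured genes rising and 1 falling, or 2 falling without coronatine replicate 1 or mock replicate 2, with a median 1.05 log2 units above that of all genes. MYB34 (AT5G60890), an activator of the pathway, read 84.3, 112 and 119.8 TPM in coronatine leaves, against 19.2, 34.1 and 18.8 TPM in mock leaves. CYP79B2 (AT4G39950), which turns tryptophan into an oxime, read 243, 256 and 225 TPM in coronatine leaves, against 96.0, 121 and 87.2 TPM in mock leaves. Both were expressed in mock leaves and higher in every coronatine library. GGP1 (AT4G30530), a peptidase acting after the glutathione step, read 1624, 1469 and 1401 TPM in coronatine leaves, against 447, 555 and 475 TPM in mock leaves. SOT16 (AT1G74100), the sulfotransferase of the last core step, read 634, 637 and 586 TPM in coronatine leaves, against 173, 214 and 170.4 TPM in mock leaves. These 4 spanned regulator, entry, middle and end, and rose by 2.12 ± 0.16 (limma adjusted p = 3.4e-11), 1.25 ± 0.10 (limma adjusted p = 2.6e-10), 1.61 ± 0.09 (limma adjusted p = 5.3e-14) and 1.74 ± 0.08 (limma adjusted p = 1.4e-15) in that order. IGMT2 (AT1G21120), a methyltransferase of side chain tailoring, fell to 10.2 ± 1.95 TPM in coronatine leaves, against 21.0 ± 4.70 TPM in mock leaves (SD). Other members of the list, the factor MYB51 (AT1G18570) and the enzymes CYP81F4 (AT4G37410) and CYP81F2 (AT5G57220), neither rose nor fell. MYB122 (AT1G74080) was below the filter.

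Sulfate assimilation, which feeds the sulfotransferases, had 8 of 13 measured genes rising and 1 falling, or 2 falling without coronatine replicate 2. APK1 (AT2G14750) and APK2 (AT4G39940) make the activated sulfate used by sulfotransferases. APK1 read 439.7, 427 and 419 TPM in coronatine leaves, against 133, 169 and 132 TPM in mock leaves. APK2 rose by 1.31 ± 0.08 (limma adjusted p = 1.9e-13) and APS3 (AT4G14680), an ATP sulfurylase, by 1.59 ± 0.06 (limma adjusted p = 1.3e-16). APR2 (AT1G62180), the reductase that draws activated sulfate towards cysteine instead, fell to 80.9, 86.2 and 81.0 TPM in coronatine leaves, against 147, 149 and 134 TPM in mock leaves, a difference of -0.78 ± 0.06 (limma adjusted p = 5.3e-11). The reductases did not move together. APR3 (AT4G21990) read 90.7, 80.7 and 87.9 TPM in coronatine leaves, against 114, 101 and 112 TPM in mock leaves and was not called on both scalings. APR1 (AT4G04610), named after its values were seen, rose to 129, 131 and 118 TPM in coronatine leaves, against 77.0, 90.2 and 75.3 TPM in mock leaves, a difference of 0.64 ± 0.08 (limma adjusted p = 2.6e-07). Of the aliphatic glucosinolate genes 7 of 17 rose and 1 fell. SOT17 (AT1G18590) rose by 0.94 ± 0.10 (limma adjusted p = 1.2e-08) while MYB28 (AT5G61420), the main activator of that branch, fell to 13.9, 22.6 and 18.8 TPM in coronatine leaves, against 43.2, 48.6 and 36.8 TPM in mock leaves, a difference of -1.19 ± 0.20 (limma adjusted p = 3.3e-05).

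Kinases and receptors of early signalling were mixed. Of the MAP kinase cascade genes 9 of 43 rose and 2 fell, against 9.87% and 15.3% of all genes. Only 1 fell without coronatine replicate 3, mock replicate 1 or mock replicate 2. The 4 with the largest rises were MAP kinase kinase kinases. Besides MAPKKK19 and MAPKKK21, MAPKKK17 (AT2G32510) rose by 3.05 ± 0.19 (limma adjusted p = 1.5e-12), or 3.41 without mock replicate 2, from a mock mean of 2.05 ± 1.43 TPM. MAPKKK20 (AT3G50310) met the rule through the coronatine libraries only, and its difference, 3.05, is a description. Danger peptide and immune receptors had 4 of 18 rising and 4 falling, against 9.87% and 15.3% of all genes. PEPR1 (AT1G73080) and PEPR2 (AT1G17750), receptors of Pep danger peptides, rose by 1.18 ± 0.08 (limma adjusted p = 2.8e-12) and 1.85 ± 0.09 (limma adjusted p = 1.8e-14). RBOHD (AT5G47910), the oxidase of the immune burst of reactive oxygen, read 286, 263 and 263 TPM in coronatine leaves, against 105, 95.1 and 113 TPM in mock leaves. FLS2 (AT5G46330), the receptor of bacterial flagellin, fell to 2.57, 2.77 and 2.73 TPM in coronatine leaves, against 7.97, 8.73 and 8.50 TPM in mock leaves, a difference of -1.35 ± 0.10 (limma adjusted p = 7.2e-11). BAM1 (AT5G65700), BAM2 (AT3G49670) and BAM3 (AT4G20270), receptor kinases of the CLE peptide class, fell, with differences of -0.97, -1.63 and -1.04. Of the glutamate receptor-like and cyclic nucleotide-gated channels 2 of 28 rose and 2 fell, against 9.87% and 15.3% of all genes. GLR3.3 (AT1G42540), a channel of wound signals, rose by 0.87 ± 0.05 (limma adjusted p = 4.9e-14), and GLR3.6 (AT3G51480), another, fell, with a difference of -0.52 ± 0.10 (limma adjusted p = 1.8e-04).

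Of the salicylate list 3 of 15 rose and 1 fell, against 9.87% and 15.3% of all genes. The 3 that rose were BSMT1, EDS5 and PR2 (AT3G57260). Without coronatine replicate 3, 6 rose, and without mock replicate 3, 5 rose. Abundant genes of the list varied between libraries of 1 treatment, and what changed the counts was not tested. PR1 (AT2G14610), the standard salicylate marker, read 751, 337 and 196 TPM in coronatine leaves, against 194, 85.3 and 471 TPM in mock leaves. PR5 (AT1G75040) read 785, 391 and 255 TPM in coronatine leaves, against 274, 159.6 and 448 TPM in mock leaves. Both were highest in coronatine replicate 1 and mock replicate 3, and the groups overlapped. PR1 differed by 0.88 ± 0.46 (limma adjusted p = 0.10) and PR5 by 0.66 ± 0.39 (limma adjusted p = 0.15), and without mock replicate 3 by 1.5 (limma adjusted p = 0.0070) and 1.03 (adjusted p = 0.042). Without coronatine replicate 3 they were 1.34 (limma adjusted p = 0.024) and 1.04 (adjusted p = 0.040). EDS5 (AT4G39030), which exports a salicylate precursor from the plastid, rose by 1.38 ± 0.12 (limma adjusted p = 6.5e-10). NPR4 (AT4G19660), a salicylate receptor, fell, with a difference of -0.89 ± 0.11 (limma adjusted p = 5.2e-07).

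Several families of transcription factors rose in part. Of 19 measured ERF factors 10 rose and 3 fell. ERF13 (AT2G44840) read 68.7, 59.7 and 54.7 TPM in coronatine leaves, against 4.12, 6.30 and 5.07 TPM in mock leaves. ERF-1 (AT4G17500) read 295, 266 and 257 TPM in coronatine leaves, against 34.9, 41.4 and 40.0 TPM in mock leaves. ERF1 (AT3G23240), an integrator of jasmonate and ethylene, rose from a low level by 2.77 ± 0.19 (limma adjusted p = 6.9e-12), with 1.49 ± 0.221 TPM as its mock mean. ERF13 rose by 3.34 ± 0.15 (limma adjusted p = 1.1e-15) and ERF-1 by 2.79 ± 0.10 (limma adjusted p = 1.9e-17). Of 5 ZAT zinc fingers 3 rose and 0 fell. STZ (AT1G27730), a stress repressor, read 421, 364 and 388 TPM in coronatine leaves, against 34.2, 43.8 and 39.6 TPM in mock leaves, a rise of 3.29 ± 0.10 (limma adjusted p = 2.3e-18).

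Of 40 NAC factors 7 rose and 6 fell, or 3 fell without coronatine replicate 2, against 9.87% and 15.3% of all genes. NAC019 (AT1G52890) read 55.4, 52.1 and 49.4 TPM in coronatine leaves, against 3.06, 5.16 and 3.53 TPM in mock leaves. NAC055 (AT3G15500) read 91.9, 84.1 and 82.7 TPM in coronatine leaves, against 6.05, 9.47 and 10.3 TPM in mock leaves. The senescence list of 12 measured genes had 5 rising and 3 falling, among them a close relative of both that the NAC list does not hold. This gene, NAC072 (AT4G27410), read 172, 139.9 and 139 TPM in coronatine leaves, against 10.7, 17.2 and 12.3 TPM in mock leaves. NAC019, NAC055 and NAC072 rose by 3.46 ± 0.18 (limma adjusted p = 3.2e-14), 3.21 ± 0.15 (limma adjusted p = 3.1e-15) and 3.41 ± 0.14 (limma adjusted p = 5.1e-16), with no overlap. ORS1 (AT3G29035) and NAP (AT1G69490), which also promote senescence, fell, with differences of -1.0 and -0.98.

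Of 49 WRKY factors 13 rose and 10 fell, against 9.87% and 15.3% of all genes. WRKY18 (AT4G31800) read 276, 250.1 and 232 TPM in coronatine leaves, against 52.6, 67.9 and 63.1 TPM in mock leaves, a rise of 2.03 ± 0.13 (limma adjusted p = 1.0e-12). WRKY40 (AT1G80840) rose by 1.94 ± 0.17 (limma adjusted p = 6.9e-10) and WRKY58 (AT3G01080) by 2.70 ± 0.14 (limma adjusted p = 3.2e-14). WRKY53 (AT4G23810), a senescence regulator, fell to 8.23 ± 2.85 TPM in coronatine leaves, against 17.9 ± 5.07 TPM in mock leaves (SD), a difference of -1.04 ± 0.20 (limma adjusted p = 1.7e-04). Of 63 MYB factors 20 rose and 15 fell, against the same shares of all genes. MYB95 (AT1G74430) read 269, 265 and 251 TPM in coronatine leaves, against 28.0, 47.2 and 25.9 TPM in mock leaves. MYB21 (AT3G27810), which acts with MYB24 in stamens, read 13.2, 12.8 and 11.3 TPM in coronatine leaves, against 0, 0.70 and 0.33 TPM in mock leaves. MYB95 rose by 2.97 ± 0.13 (limma adjusted p = 5.2e-16) and MYB108 (AT3G06490) by 2.67 ± 0.13 (limma adjusted p = 4.3e-15). MYB21 met the rule through the coronatine libraries only, and its difference of 3.36, or 3.54 without mock replicate 2, is a description. MYB16 (AT5G15310), which promotes cuticle formation, and MYBL2 (AT1G71030), a repressor of anthocyanin synthesis, fell, with differences of -1.27 and -1.48.

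Of 24 B-box genes measured, 15 fell and 3 rose, against 15.3% and 9.87% of all genes, with a median of -0.60 log2 units relative to that of all genes. COL2 (AT3G02380), a CONSTANS-like B-box protein, read 4.91, 6.31 and 6.63 TPM in coronatine leaves, against 33.0, 31.7 and 26.5 TPM in mock leaves. BBX14 (AT1G68520) read 13.1, 14.0 and 14.9 TPM in coronatine leaves, against 57.3, 59.8 and 57.6 TPM in mock leaves. BBX15 (AT1G25440) read 55.1, 56.8 and 59.7 TPM in coronatine leaves, against 159, 164 and 156 TPM in mock leaves. In all 3 the coronatine values were far below the mock values, with little spread between libraries. COL2 differed by -2.18 ± 0.09 (limma adjusted p = 6.3e-16), BBX14 by -1.98 ± 0.08 (limma adjusted p = 1.2e-16) and BBX15 by -1.47 ± 0.06 (limma adjusted p = 3.1e-16). BBX30 (AT4G15248) and BBX13 (AT1G28050) went the other way, with rises of 1.42 ± 0.15 (limma adjusted p = 2.5e-08) and 1.5 ± 0.09 (limma adjusted p = 9.3e-13).

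Of 14 regulators of the chloroplast 10 fell and 0 rose, against 15.3% and 9.87% of all genes, and 4 were not called. GLK2 (AT5G44190), an activator of chlorophyll and antenna genes, read 55.1, 58.4 and 60.9 TPM in coronatine leaves, against 139, 148 and 131 TPM in mock leaves. GNC (AT5G56860), a GATA factor of greening, read 4.89, 6.54 and 6.07 TPM in coronatine leaves, against 19.2, 23.4 and 18.5 TPM in mock leaves. CIA2 (AT5G57180), which promotes plastid protein import, read 4.71, 7.42 and 6.63 TPM in coronatine leaves, against 21.8, 23.4 and 19.2 TPM in mock leaves. All 3 were lower in every coronatine library. CGA1 (AT4G26150), the nearest relative of GNC, read 0.97, 0.76 and 1.12 TPM in coronatine leaves, against 5.49, 6.58 and 4.22 TPM in mock leaves. GLK2 differed by -1.25 ± 0.13 (limma adjusted p = 1.4e-08), GNC by -1.64 ± 0.10 (limma adjusted p = 1.6e-12) and CIA2 by -1.65 ± 0.11 (limma adjusted p = 8.5e-12). Only coronatine replicate 3 reached 1 TPM for CGA1, so it met the rule through the mock libraries. Its difference of -1.71 is a description. Few genes of the antenna and of chlorophyll synthesis were called at this time. Of 21 light-harvesting genes 0 fell and 1 rose, and of 23 chlorophyll synthesis genes 3 fell and 1 rose. The 3 were PORB (AT4G27440), the light-driven reductase, with 197, 235 and 216 TPM in coronatine leaves, against 494, 453 and 453 TPM in mock leaves, GUN4 (AT3G59400) with 190.3 ± 22.2 TPM in coronatine leaves, against 318 ± 8.75 TPM in mock leaves (SD) and CAO (AT1G44446) with 172 ± 8.43 TPM in coronatine leaves, against 277 ± 15.7 TPM in mock leaves (SD). PORB fell, with a difference of -1.11 ± 0.08 (limma adjusted p = 1.9e-11). GATA factors as a family had 12 of 24 falling and 0 rising, 6 falling and 1 rising without mock replicate 2 and 6 falling without coronatine replicate 1. TCP factors had 7 of 18 falling and 1 rising.

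Chlorophyll breakdown had 4 of 14 genes rising and 1 falling, against 9.87% and 15.3% of all genes. Without coronatine replicate 1 or mock replicate 1 or 3, 0 fell. CLH1 (AT1G19670), a chlorophyllase, read 3789, 3514 and 3746 TPM in coronatine leaves, against 1379, 1545 and 1401 TPM in mock leaves, the largest gain of TPM of any named gene. PPH (AT5G13800), the phytol hydrolase of the main pathway, read 115, 123 and 117 TPM in coronatine leaves, against 58.2, 65.0 and 58.1 TPM in mock leaves. CLH1 rose by 1.35 ± 0.07 (limma adjusted p = 6.9e-15) and PPH by 0.96 ± 0.08 (limma adjusted p = 2.2e-10). PAO (AT3G44880), which opens the chlorophyll ring, rose by 0.27 ± 0.06 (limma adjusted p = 3.6e-04).

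Clock genes fell more often than they rose, 9 and 1 of 18, against 15.3% and 9.87% of all genes. EPR1 (AT1G18330) read 2.41, 2.94 and 3.47 TPM in coronatine leaves, against 14.1, 14.6 and 14.6 TPM in mock leaves. RVE1 (AT5G17300) read 4.38, 6.24 and 5.88 TPM in coronatine leaves, against 16.5, 17.5 and 14.1 TPM in mock leaves. PRR9 (AT2G46790) read 9.37, 11.1 and 9.11 TPM in coronatine leaves, against 21.1, 22.2 and 23.3 TPM in mock leaves. These 3 showed no overlap. CCA1 (AT2G46830), of the morning loop, fell to 51.6, 56.5 and 49.3 TPM in coronatine leaves, against 87.2, 88.0 and 76.4 TPM in mock leaves. The 4 differed by -1.98 ± 0.12 (limma adjusted p = 6.5e-13), -1.40 ± 0.10 (limma adjusted p = 1.4e-11), -1.10 ± 0.08 (limma adjusted p = 2.0e-11) and -0.67 ± 0.08 (limma adjusted p = 4.5e-07) in that order. LUX (AT3G46640), of the evening complex, rose by 1.88 ± 0.09 (limma adjusted p = 5.9e-15). Without mock replicate 2 the clock list had 6 falling and 1 rising.

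Growth regulators of the brassinosteroid and bHLH group had 16 of 21 members falling and 1 rising, with a median of -0.64 log2 units relative to that of all genes. HBI1 (AT2G18300), a bHLH that promotes cell elongation, read 17.0, 20.0 and 20.8 TPM in coronatine leaves, against 85.0, 88.1 and 86.6 TPM in mock leaves. BEE3 (AT1G73830), a related factor, read 0.67, 0.80 and 0.61 TPM in coronatine leaves, against 4.33, 4.68 and 5.95 TPM in mock leaves, and BEE1 (AT1G18400) fell, with a difference of -1.40. BR6OX2 (AT3G30180), of the last steps of brassinosteroid synthesis, read 3.13, 2.94 and 3.39 TPM in coronatine leaves, against 9.77, 8.77 and 9.70 TPM in mock leaves. HBI1 differed by -2.11 ± 0.09 (limma adjusted p = 3.5e-16) and BR6OX2 by -1.33 ± 0.09 (limma adjusted p = 7.2e-12). BEE3 met the rule through the mock libraries only, and its difference of -1.81 is a description. The gene that rose, PIF4 (AT2G43010), a growth bHLH of light and warmth signalling, read 143, 146 and 133 TPM in coronatine leaves, against 93.0, 93.8 and 85.2 TPM in mock leaves, a difference of 0.63 ± 0.06 (limma adjusted p = 1.9e-09).

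The auxin list was the longest and had 71 of 114 measured genes falling and 15 rising, with a median of -0.43 log2 units relative to that of all genes. Its largest falls were small auxin-up RNAs, which promote cell expansion. SAUR16 (AT4G38860) read 11.9, 14.2 and 13.3 TPM in coronatine leaves, against 67.3, 58.4 and 60.0 TPM in mock leaves. SAUR50 (AT4G34760) read 3.82, 4.66 and 6.00 TPM in coronatine leaves, against 20.5, 22.3 and 16.2 TPM in mock leaves. SAUR16 differed by -2.16 ± 0.10 (limma adjusted p = 6.1e-15), SAUR50 by -1.83 ± 0.13 (limma adjusted p = 1.0e-11) and SAUR24 (AT5G18080) by -1.58 ± 0.18 (limma adjusted p = 7.5e-08). Short SAUR genes have close copies between which reads may be split. DFL2 (AT4G03400), a GH3 enzyme, was the most abundant of the named risers, with 174, 155 and 143 TPM in coronatine leaves, against 61.7, 82.5 and 60.8 TPM in mock leaves. SAUR9 (AT4G36110) also rose, by 1.68 ± 0.13 (limma adjusted p = 1.0e-10). Without mock replicate 2 the list had 60 falling and 15 rising.

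Of 13 gibberellin genes measured, 5 rose and 6 fell, against 9.87% and 15.3% of all genes. GA3OX1 (AT1G15550), which makes active gibberellin, read 0.12, 0.33 and 0.44 TPM in coronatine leaves, against 3.03, 2.88 and 2.44 TPM in mock leaves. GA20OX1 (AT4G25420), of the step before, read 1.04, 1.23 and 1.29 TPM in coronatine leaves, against 4.0, 3.92 and 3.6 TPM in mock leaves. GA20OX1 fell, with a difference of -1.15 ± 0.09 (limma adjusted p = 1.2e-10). GA3OX1 met the rule through the mock libraries only, and its difference of -1.55 is a description. GA2OX2 (AT1G30040), of the class that inactivates gibberellin, rose by 1.24 ± 0.17 (limma adjusted p = 1.5e-06), while GA2OX6 (AT1G02400) of that class read 2.55, 2.06 and 2.06 TPM in coronatine leaves, against 2.67, 3.69 and 3.16 TPM in mock leaves and was not called on both scalings. The DELLA repressors of growth moved both ways. RGL3 (AT5G17490) read 93.4, 102 and 92.9 TPM in coronatine leaves, against 7.25, 11.9 and 7.81 TPM in mock leaves. RGL1 (AT1G66350) rose by 1.09 ± 0.08 (limma adjusted p = 3.4e-11), whereas RGA (AT2G01570) fell to 24.6, 24.2 and 25.1 TPM in coronatine leaves, against 38.8, 37.6 and 39.0 TPM in mock leaves. RGL3 rose by 3.31 ± 0.12 (limma adjusted p = 2.9e-17), and RGA differed by -0.62 ± 0.05 (limma adjusted p = 1.5e-10). RGL2 (AT3G03450), which met the rule through the mock libraries only, read 0.73, 0.84 and 0.60 TPM in coronatine leaves, against 1.79, 1.45 and 1.91 TPM in mock leaves, a difference of -0.66 given as a description.

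Cytokinin genes had 13 of 29 falling and 5 rising, against 15.3% and 9.87% of all genes. ARR9 (AT3G57040), an early response regulator, read 6.33, 9.06 and 9.69 TPM in coronatine leaves, against 20.6, 22.4 and 18.7 TPM in mock leaves, a difference of -1.22 ± 0.10 (limma adjusted p = 2.6e-10). CKX5 (AT1G75450) and CKX4 (AT4G29740), oxidases that remove cytokinin, rose by 2.51 ± 0.12 (limma adjusted p = 4.9e-15) and 1.38 ± 0.12 (limma adjusted p = 2.9e-10), while CKX6 (AT3G63440) fell, with a difference of -1.14. Ethylene genes had 3 of 18 rising and 6 falling, against 9.87% and 15.3% of all genes. EBF1 (AT2G25490) was up by 1.85 ± 0.08 (limma adjusted p = 3.0e-16) and EBF2 (AT5G25350) lower by a difference of -0.78, both F-box proteins that restrain ethylene signalling. Abscisic acid genes had 4 of 14 rising and 4 falling, against 9.87% and 15.3% of all genes. ABI1 (AT4G26080), a phosphatase that restrains abscisic acid signalling, read 87.5, 73.2 and 67.8 TPM in coronatine leaves, against 18.6, 19.9 and 18.3 TPM in mock leaves, a rise of 1.95 ± 0.07 (limma adjusted p = 9.8e-17). CYP707A3 (AT5G45340), an oxidase of abscisic acid, read 0.92, 0.99 and 1.07 TPM in coronatine leaves, against 4.34, 4.40 and 5.00 TPM in mock leaves. Only coronatine replicate 3 reached 1 TPM for it, so it met the rule through the mock libraries. Its difference of -1.48 is a description. Its family moved both ways, since CYP707A1 (AT4G19230) rose while CYP707A2 (AT2G29090) and CYP707A4 (AT3G19270) fell. NCED3 (AT3G14440), of abscisic acid synthesis, rose.

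Wall and surface genes fell more often than they rose. Of 32 measured expansin and XTH genes 15 fell and 2 rose, against 15.3% and 9.87% of all genes. XTH9 (AT4G03210) read 9.76, 16.1 and 20.0 TPM in coronatine leaves, against 49.3, 47.5 and 41.3 TPM in mock leaves. EXPA8 (AT2G40610), an expansin that loosens the wall, read 15.4, 16.4 and 17.6 TPM in coronatine leaves, against 46.6, 36.4 and 40.6 TPM in mock leaves. EXPA5 (AT3G29030) fell, with a difference of -1.06. XTH9 differed by -1.58 ± 0.18 (limma adjusted p = 7.8e-08) and EXPA8 by -1.27 ± 0.17 (limma adjusted p = 1.3e-06). XTH25 (AT5G57550) rose by 1.34 ± 0.24 (limma adjusted p = 7.8e-05). Of 33 wax and cuticle genes 14 fell and 3 rose, against the same shares of all genes. KCS8 (AT2G15090) and KCS12 (AT2G28630), elongases of very long fatty acids, fell, with differences of -1.33 and -1.37. CER3 (AT5G57800), of wax alkane synthesis, read 194, 184 and 171 TPM in coronatine leaves, against 55.9, 59.3 and 54.4 TPM in mock leaves, a rise of 1.67 ± 0.09 (limma adjusted p = 1.1e-13). These genes act mostly in the epidermis, and the 5 epidermis markers summed to 1309 ± 87.5 TPM in coronatine leaves and 1631 ± 68.4 TPM in mock leaves (SD). Among them ATML1 (AT4G21750) and CER5 (AT1G51500) fell, with differences of -0.62 and -0.53. Their part in the falls of these lists was not tested.

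Cell cycle genes had 16 of 34 falling and 1 rising, at low levels, against 15.3% and 9.87% of all genes. CYCD6;1 (AT4G03270) read 1.29, 2.33 and 2.61 TPM in coronatine leaves, against 5.58, 5.10 and 5.11 TPM in mock leaves, and CYCD1;1 (AT1G70210) read 1.69, 3.63 and 3.18 TPM in coronatine leaves, against 5.03, 5.85 and 5.02 TPM in mock leaves. Coronatine replicate 1 was the lowest library for both. The count depended on single libraries, with 3 falling without coronatine replicate 1 and 6 without mock replicate 2. Of 15 stomatal lineage genes 5 fell and 0 rose, or 2 fell without coronatine replicate 1 and 3 without mock replicate 1. SCRM2 (AT1G12860), a bHLH of that lineage, fell to 8.14, 12.4 and 13.3 TPM in coronatine leaves, against 22.3, 22.0 and 20.0 TPM in mock leaves.

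**Figure D4:**
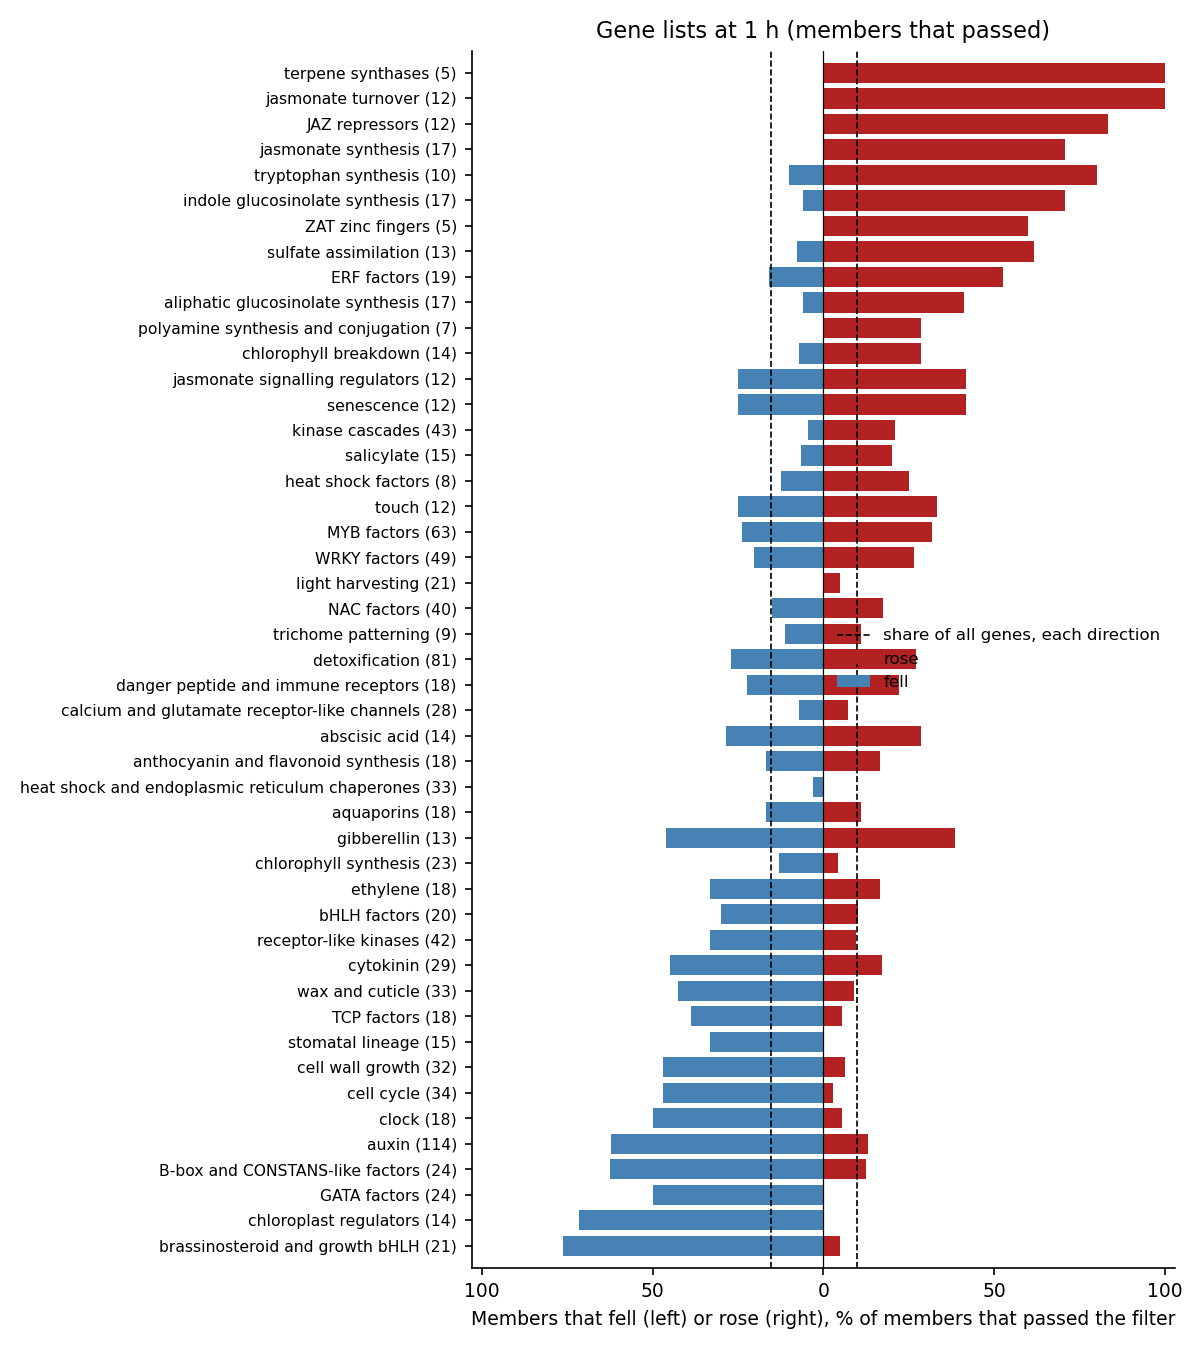
Share of the measured members of each gene list that rose (right, red) or fell (left, blue) at 1 h, in percent, with the number measured in brackets and dashed lines at the shares of all genes (9.87% rose, 15.3% fell). Jasmonate turnover and terpene synthases reach 100% rising, and brassinosteroid and growth bHLH genes reach the highest share falling, with 16 of 21.

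Other lists held both directions or few calls. Their counts stand against 9.87% of all genes rising and 15.3% falling. Detoxification genes had 22 of 81 rising and 22 falling, with GSTU5 (AT2G29450), a glutathione transferase, at 599 ± 14.3 TPM in coronatine leaves, against 91.8 ± 31.4 TPM in mock leaves (SD), and UGT74D1 (AT2G31750), a glycosyltransferase, at 12.2 ± 1.72 TPM in coronatine leaves, against 27.7 ± 2.73 TPM in mock leaves (SD). Receptor-like kinases of the CRK and WAK families had 4 of 42 rising, 7 without coronatine replicate 3, and 14 falling, against 9.87% and 15.3% of all genes. Polyamine genes had 2 of 7 rising and 0 falling, among them ADC2 (AT4G34710), an arginine decarboxylase, with 367, 416 and 384 TPM in coronatine leaves, against 129.5, 177 and 144 TPM in mock leaves, a rise of 1.38 ± 0.12 (limma adjusted p = 9.4e-10). NATA1 (AT2G39030), an acetyltransferase of ornithine, read 1872, 1525 and 1708 TPM in coronatine leaves, against 781, 991 and 1006 TPM in mock leaves, a rise of 0.88 ± 0.12 (limma adjusted p = 2.3e-06). Flavonoid genes had 3 of 18 rising, or 2 whichever library was left out, and 3 falling, against 9.87% and 15.3% of all genes. Without coronatine replicate 1 or mock replicate 1 or 2, 0 fell. PAL1 (AT2G37040), which enters phenylpropanoid synthesis, rose by 1.19 ± 0.07 (limma adjusted p = 8.1e-13). Touch and calmodulin-like genes had 4 of 12 rising, 2 without coronatine replicate 1 or mock replicate 1 or 2, and 3 falling. Aquaporins had 2 of 18 rising, 1 without coronatine replicate 1 or mock replicate 2, and 3 falling, close to the shares of all genes. PIP1;4 (AT4G00430) among the aquaporins fell to 73.4, 93.9 and 91.8 TPM in coronatine leaves, against 141, 139 and 121 TPM in mock leaves. Heat shock and endoplasmic reticulum chaperones had 0 of 33 rising by limma on both scalings, 2 without coronatine replicate 3 or mock replicate 3, and 1 falling. Heat shock factors had 2 of 8 rising and 1 falling, or 2 falling without coronatine replicate 1. The numbered bHLH factors had 2 of 20 rising and 6 falling, or 1 falling without mock replicate 1, and trichome patterning genes 1 of 9 in each direction.

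Genes were also ranked by the gain or loss of mean TPM, among those with a symbol. The sums of the 10 largest each way therefore had to differ in that direction and are descriptions. The 10 largest gains summed to 24666 ± 902 TPM in coronatine leaves and 10363 ± 1207 TPM in mock leaves (SD). They were CLH1, AOC1, LOX2, AOS, ARGAH2 (AT4G08870), FAMT (AT3G44860), PGL5 (AT5G24420), GGP1, OPR3 and DHAR1 (AT1G19570). ARGAH2, an arginase, read 2921, 2752 and 2518 TPM in coronatine leaves, against 1254, 1628 and 1345 TPM in mock leaves. FAMT, a methyltransferase, read 1558, 1355 and 1314 TPM in coronatine leaves, against 86.9, 162 and 113 TPM in mock leaves. DHAR1, which recycles ascorbate, read 1694, 1814 and 1775 TPM in coronatine leaves, against 799.8, 1111 and 815 TPM in mock leaves. The log2 differences varied widely, from 3.58 ± 0.15 (limma adjusted p = 4.2e-16) for FAMT to 0.96 ± 0.18 (limma adjusted p = 8.2e-05) for ARGAH2. The 10 largest losses summed to 2873 ± 246 TPM in coronatine leaves and 4658 ± 128 TPM in mock leaves (SD). SAMDC (AT3G02470), a decarboxylase of polyamine synthesis, lost most, with 948, 1047 and 945 TPM in coronatine leaves, against 1366, 1343 and 1292 TPM in mock leaves, a difference of -0.45 ± 0.05 (limma adjusted p = 1.6e-07). MTO3 (AT3G17390), an S-adenosylmethionine synthetase, read 319, 317 and 319.7 TPM in coronatine leaves, against 523, 497 and 494 TPM in mock leaves. AVP1 (AT1G15690), the vacuolar proton pyrophosphatase, fell to 183 ± 12.1 TPM in coronatine leaves, against 298 ± 18.3 TPM in mock leaves (SD). The rest of the losses were PORB, GUN4, CWLP (AT3G22120), ACL (AT2G23600), XTH4 (AT2G06850), BGAL1 (AT3G13750) and STO (AT1G06040).

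Most genes that changed at 1 h were called in the same direction in the later libraries. Of the 1730 that rose, 1476 were higher at 3 h (85.3%), 1329 at 12 h (76.8%) and 1356 at 24 h (78.4%), against 13.7%, 23.0% and 36.3% of all genes. They made up 61.3%, 32.9% and 21.3% of the genes higher at those times. Genes called lower later numbered 32, 117 and 190 of the 1730. Of the 2684 that fell, 2193 were lower at 3 h (81.7%), 1811 at 12 h (67.5%) and 1860 at 24 h (69.3%), against 36.1%, 41.5% and 43.2% of all genes. They made up 34.7%, 24.9% and 24.6% of the genes lower then, and 23, 201 and 383 of them were called higher.

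Single genes followed different courses. BSMT1 went on to differences of 8.53, 7.67 and 9.60 at 3, 12 and 24 h. CML39 followed with 7.52, 7.06 and 8.81. MAPKKK19, in contrast, stayed near its 1 h value, with 4.86, 4.13 and 4.34. RRTF1 stood at 4.10, 2.13 and 1.44, the only one of the 15 largest rises below 2 at 24 h. Among the falls, HBI1 reached -3.13, -4.28 and -5.90 and SAUR16 -4.63, -4.0 and -6.03. BBX14 stayed between, at -1.48, -2.32 and -2.32, and LTP2 at -1.0, -0.70 and -1.61. Each of these differences uses its own mock leaves of the same time. Among all genes, the difference at 3 h was above that at 1 h in 10.9% and below it in 26.0% by limma on both scalings.

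**Figure D5:**
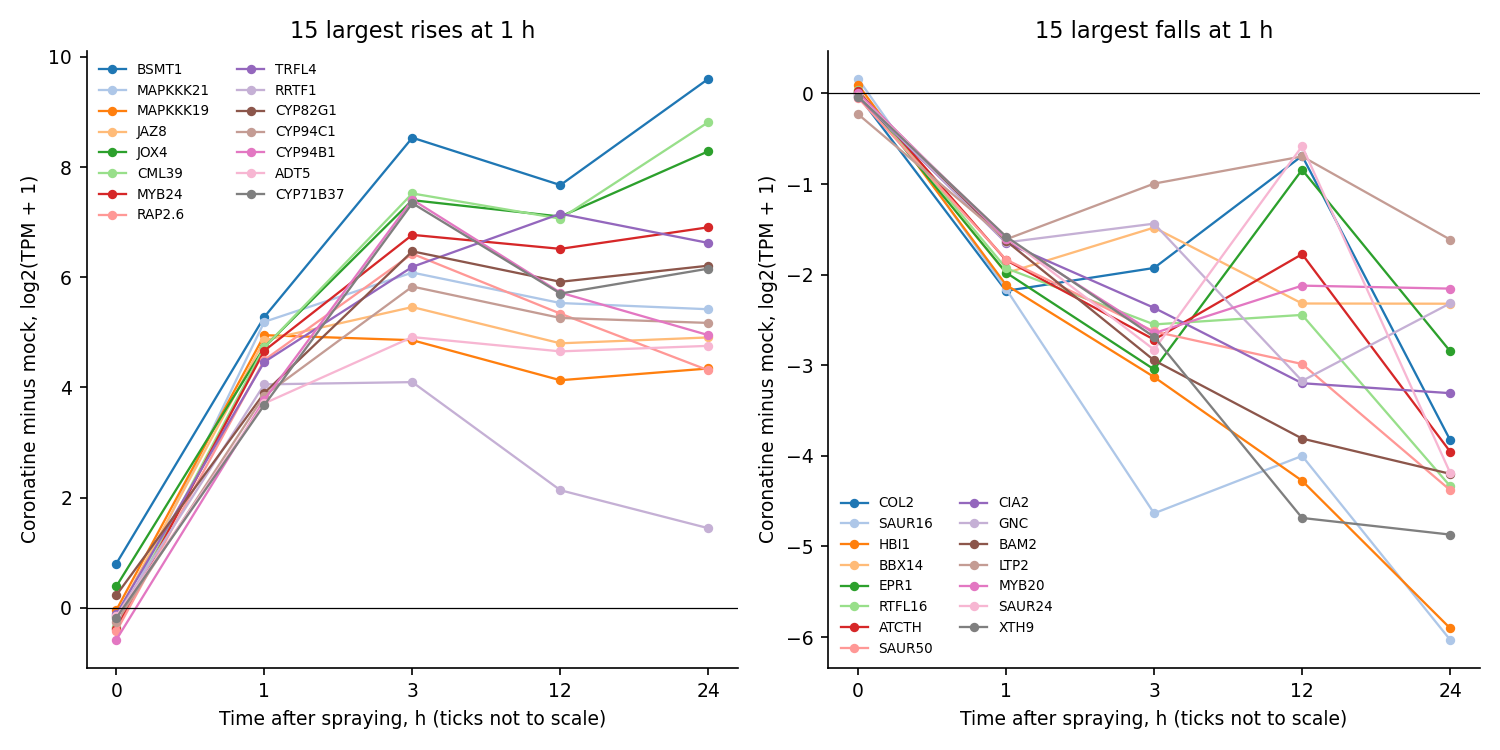
Difference between coronatine and mock leaves (vertical axis, log2(TPM + 1)) at 0, 1, 3, 12 and 24 h after spraying (horizontal axis, ticks not to scale) for the 15 largest rises (left) and the 15 largest falls (right) at 1 h, 1 line per gene. The rises lie within 1 of 0 at 0 h, above 3 at 1 h and above 1 at 24 h, with RRTF1 declining most, while SAUR16 and HBI1 reach the lowest values at 24 h.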

How the data were processed

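Leaf RNA was sequenced on a DNBseq platform, per the labels' protocols. Per the submitters' processing notes, the authors used RSEM 1.3.3, DESeq2 and the TAIR10 build, and deposited TPM per locus. The sources used here do not name the aligner. TPM values keep no depth and depend on what else is expressed, which can shift all genes together. The authors' deposited table for 1 h gives a mean normalised count signal per gene, log2 fold changes and p-values, and served as an alternative.

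limma 3.58.1 (R 4.3.3) was fitted to log2(TPM + 1) with 10 group means over all 30 libraries and a mean-variance trend, two-sided, for the 17531 genes with at least 1 TPM in at least 3 of 6 libraries. P-values were adjusted over all of them at 0.05. The fit was repeated on TPM divided by TMM factors (trims of 30% and 5%), and a gene rose or fell if called alike in both. On simulated data with 50 genes per size, 86% of log2 changes of 0.5 and 96% of 1 were recovered, and 8 of 199 calls were false. Few genes changed in that simulation, whereas the leaves had 4414 calls among 17531 genes and a median difference of -0.182 on TPM. Recovery and false calls under so broad a change were not tested, so these rates need not hold for the leaf data.

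Named genes have a symbol: the 15 largest log2 rises and falls, the 10 largest TPM gains and losses, up to 4 called members of each list per direction and its most abundant uncalled ones, and core jasmonate genes. Members, lists and tests were chosen with earlier results of these data known, and gene lists are described by counts and medians with no test.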

Additional observations from a re-analysis of the deposited data

Results flagged for a closer look

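The effect of coronatine at 3 h differed from that at 1 h in several of the genes that changed most at 1 h, by limma's test of the difference on both scalings, with adjusted p-values over all genes. The values below are the log2 difference at 3 h minus that at 1 h, and the 1 h libraries that ranked these genes enter both. Among the rises the later effect was larger by 3.66 in CYP71B37, 3.63 in CYP94B1, 3.25 in BSMT1, 2.79 in CML39, 2.67 in JOX4, 2.57 in CYP82G1, 2.10 in MYB24, 1.98 in CYP94C1, 1.93 in RAP2.6, 1.73 in TRFL4, 1.2 in ADT5 and 0.60 in JAZ8. MAPKKK19, MAPKKK21 and RRTF1 were not among them. TRFL4 and MYB24 met the rule through the coronatine libraries at 1 h, so their values are descriptions. Among the falls the change was -2.48 in SAUR16, -1.32 in BAM2, -1.25 in SAUR24, -1.11 in XTH9, -1.07 in EPR1, -1.04 in MYB20, -1.02 in HBI1, -0.88 in ATCTH (AT2G25900), -0.79 in SAUR50 and -0.72 in CIA2, which fell further. It was 0.50 in BBX14, whose difference was smaller at 3 h. PIP1;4, an aquaporin called lower at 1 h and higher at 3 h, changed by 1.36.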

How the results depend on the processing

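On TPM as deposited alone 7732 genes were called lower, and on TMM-rescaled TPM alone 3354 were called higher. Quantile normalization called 4330 lower, and 2980 were higher in the authors' deposited table. Of the genes called lower at 1 h on TPM alone, 7095, 6210 and 5331 were also lower at 3, 12 and 24 h. On TMM-rescaled TPM alone 2901, 2720 and 2694 of the genes called higher were also higher then. Under the other settings, which changed the pseudocount, the filter, the trend, the organelle loci or the libraries fitted, both counts stayed within 1.5 times those reported. Leaving out 1 library gave 1577 to 1768 genes that rose and 2142 to 2717 that fell. Deviations of same-numbered coronatine and mock libraries had correlations of -0.17, 0.15 and -0.32, and those of differently numbered ones ranged from -0.29 to 0.44. With 3 libraries per group this cannot decide whether the replicate numbers pair them, and the labels do not say. With a replicate block 1688 genes rose and 2466 fell. For 176 named genes, 3331 values were recomputed under these settings, and 3300 kept their direction and call. Part of that agreement was fixed, since a call made on both scalings cannot be lost on either scaling alone. Many of these genes were also named for the size of their difference, so the count does not speak for other genes. The call was lost 16 times, for VSP1, VSP2 and, in a fit of the 6 libraries at 1 h alone, CYCD1;1, and gained 7 times, for PR1, PR5, APR3 and GA2OX6. In windows of 150 bases the G-box was held by 9.76% of the genes that rose, 3.84% of those that fell and 5.67% of all. JAZ11 reversed to 0.082 on TMM-rescaled TPM, 0.049 by quantile normalization and 0.068 in the authors' deposited table. JAZ2 reversed to 0.15, 0.24 and 0.18 in the same 3, and ranged from -0.093 to 0.081 when 1 library was left out (0.050 without mock replicate 3), and the cause was not tested. List counts without each library were added after seeing the data.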
